A study of Mus musculus with 6 samples.

Results

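Carboxylesterases are serine hydrolases that cut ester, amide and thioester bonds, and the 9 described here (Ces1d, Ces1e, Ces1f, Ces1g, Ces2a, Ces2b, Ces2c, Ces2d-ps and Ces2e) are members of mouse families 1 and 2. They were chosen by name as a gene family. The choice followed earlier results of these same 6 mice, in which Ces1f, Ces2a and Ces2d-ps already stood low with NeuroD-EGFP, so every difference between the groups is given as a description, with no test. Under current or earlier symbols the platform annotation held 1 probe each for 8 of the 9 genes, out of 45281 probes, and listed none for Ces2c, an acylcarnitine and acylglycerol hydrolase, which was not analysed here. A probe was tested where 3 or more of the 6 arrays gave it a detection p-value under 0.05. This kept 7 of the 8 members, all but Ces1g, within 19099 probes that read 10777 named genes.

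In the study, male C57BL/6J mice aged 8 weeks received 9 Gy total-body irradiation (TBI) and straight afterwards an intraperitoneal injection of 100 µl of 0.1 mM protein. The tested protein was NeuroD-EGFP, the transcription factor NeuroD joined to enhanced green fluorescent protein and purified from Escherichia coli (3 mice), and EGFP alone was the control protein (3 mice). Total RNA of the jejunum at 12 h was labelled with Cy3 and hybridised to Mouse WG-6 beadchips from Illumina, with an array for each mouse. All mice on the arrays were irradiated, so no value below stands against an unirradiated gut.

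In the small intestine carboxylesterases sit in the endoplasmic reticulum of enterocytes, where they hydrolyse drugs, food esters and stored lipids. In humans the family 2 enzyme CES2 dominates in the gut and activates ester prodrugs such as irinotecan, while the family 1 enzyme CES1 dominates in the liver. The mouse has many near-copies of each, all on chromosome 8, where Ces1a to Ces1h follow each other in one cluster and Ces2a to Ces2h in another. Because these genes are close copies, a probe named for one may also read a neighbour, and the probe sequences were not used here.

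Values are log2 intensities after background correction and quantile normalization (neqc in limma, offset 16), and differences are NeuroD-EGFP minus EGFP with limma's standard error. The arrays detected between 18619 and 19290 probes in the NeuroD-EGFP mice and between 18271 and 20408 in the EGFP mice, and the number of arrays limits the precision. None of the 19099 tested probes passed an adjusted p of 0.05 from limma with all 6 mice (0%). In the same limma fit 954 (5%) had an unadjusted p under 0.05, which is the share that threshold gives with no difference. By the study's design the replicates are separate mice.

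The EGFP mice did not all carry the marker profile of the labelled tissue. Lct, the lactase of the proximal and middle small intestine, had log2 intensities of 12.94, 12.95 and 13.26 in NeuroD-EGFP mice 1 to 3, against 12.14, 12.95 and 4.56 in EGFP mice 1 to 3, and was not detected in EGFP mouse 3. Gata4, a transcription factor that is normally missing from the distal ileum, was likewise undetected in EGFP mouse 3 alone (4.53, where the other 5 mice had 5.70 to 6.67). Fabp6, the ileal bile acid binding protein, was 5.79, 4.67 and 4.57 in the NeuroD-EGFP mice and 4.38, 4.66 and 14.26 in the EGFP mice. EGFP mouse 3 thus lacked 2 markers of the upper small intestine and had the ileal one at a level of its own. Slc40a1, an iron exporter that is highest in duodenum, was 8.55, 8.03 and 7.995 in the NeuroD-EGFP mice and 12.66, 9.30 and 10.40 in the EGFP mice, with EGFP mouse 1 the highest. EGFP mouse 3 was the next highest, and every EGFP mouse lay above every NeuroD-EGFP mouse. The paper lists Slc40a1 among the genes lowered with NeuroD-EGFP and reports the same direction by qRT-PCR. Slc40a1 did not follow Lct, Gata4 and Fabp6, which singled out EGFP mouse 3. The parts of position and treatment in Slc40a1 were not tested and cannot be told apart here. These 4 markers were chosen after the data had been seen. Position along the gut was not tested as a factor, and the carboxylesterase differences are given with all 6 mice and without EGFP mouse 3 or EGFP mouse 1. For other genes and lists, values without an EGFP mouse are given where the sign or size hung most on that mouse.

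**Figure D1:**
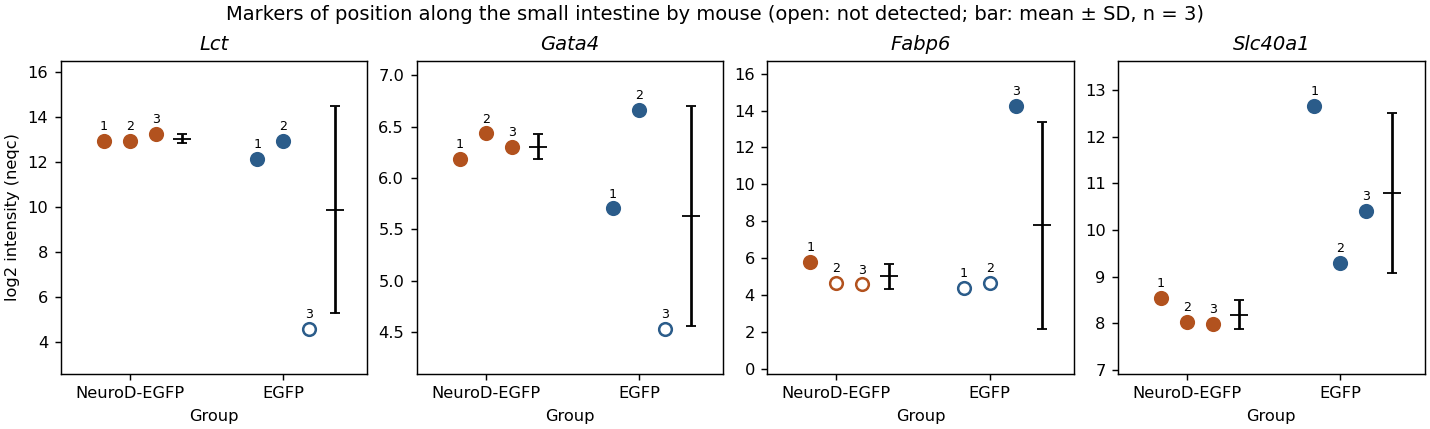
Log2 intensity (neqc) of Lct, Gata4, Fabp6 and Slc40a1 in each NeuroD-EGFP mouse (left) and EGFP mouse (right), numbered 1 to 3, with open circles for probes that were not detected and bars for the group mean ± SD (n = 3). EGFP mouse 3 stands alone in Lct (4.56) and Fabp6 (14.26), and EGFP mouse 1 is highest in Slc40a1 (12.66).

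In bulk tissue fewer cells of a type and less RNA per cell cannot be told apart, which holds for all values that follow. Among the family 1 genes, Ces1f had the widest difference between group means. Ces1f, also known as AU018778 or triacylglycerol hydrolase 2, had log2 intensities of 10.31, 9.18 and 8.74 in NeuroD-EGFP mice 1 to 3, against 11.64, 11.37 and 10.37 in EGFP mice 1 to 3. All NeuroD-EGFP mice lay below all EGFP mice, but only just, since NeuroD-EGFP mouse 1 and EGFP mouse 3 were 0.060 apart. The means were 9.41 ± 0.81 with NeuroD-EGFP and 11.13 ± 0.67 with EGFP (SD, n = 3 each), a difference of -1.71 (standard error 0.47), so the EGFP level was 3.28-fold that with NeuroD-EGFP. Without EGFP mouse 3 the difference was -2.09 (standard error 0.43), and without EGFP mouse 1 it was -1.46 (standard error 0.52). As deposited, before any scaling between arrays, the Ces1f intensities were 1221, 518 and 345 with NeuroD-EGFP and 3863, 2837 and 1303 with EGFP. The EGFP arrays also had the higher 75th percentiles of all intensities. Scaled to that percentile in place of quantile normalization, the Ces1f groups overlapped.

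Ces1d and Ces1e, which precede Ces1f in the cluster, gave overlapping groups. Ces1d is the triacylglycerol hydrolase that mobilises stored lipid in liver and fat, and its log2 intensities were 9.78, 8.74 and 9.16 with NeuroD-EGFP and 9.79, 10.62 and 9.15 with EGFP. EGFP mouse 3 fell between NeuroD-EGFP mice 2 and 3, and the difference was -0.63 (standard error 0.41). Ces1e, known as egasyn for holding beta-glucuronidase in the endoplasmic reticulum of liver cells, had 6.93, 6.42 and 6.05 with NeuroD-EGFP and 7.46, 8.002 and 5.47 with EGFP. The lowest and the highest of its 6 values were both in EGFP mice, and the difference was -0.51 (standard error 0.62). Without EGFP mouse 3 the groups no longer overlapped in either gene, though NeuroD-EGFP mouse 1 and EGFP mouse 1 all but met in Ces1d, with differences of -0.98 (standard error 0.36) for Ces1d and -1.26 (standard error 0.29) for Ces1e. Without EGFP mouse 2 the difference was -0.25 for Ces1d and 0.0037 for Ces1e. Without EGFP mouse 1 it was -0.66 (standard error 0.49) for Ces1d and -0.27 (standard error 0.72) for Ces1e.

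Ces1g, a family 1 enzyme of hepatic and intestinal lipid metabolism, stood at background. Its probe was detected in EGFP mouse 3 alone, with a detection p-value of 0.019 and a deposited intensity of 27.3, while the intensities of the other 5 mice lay between -16.4 and -1.19. No fold is given for it.

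**Figure D2:**
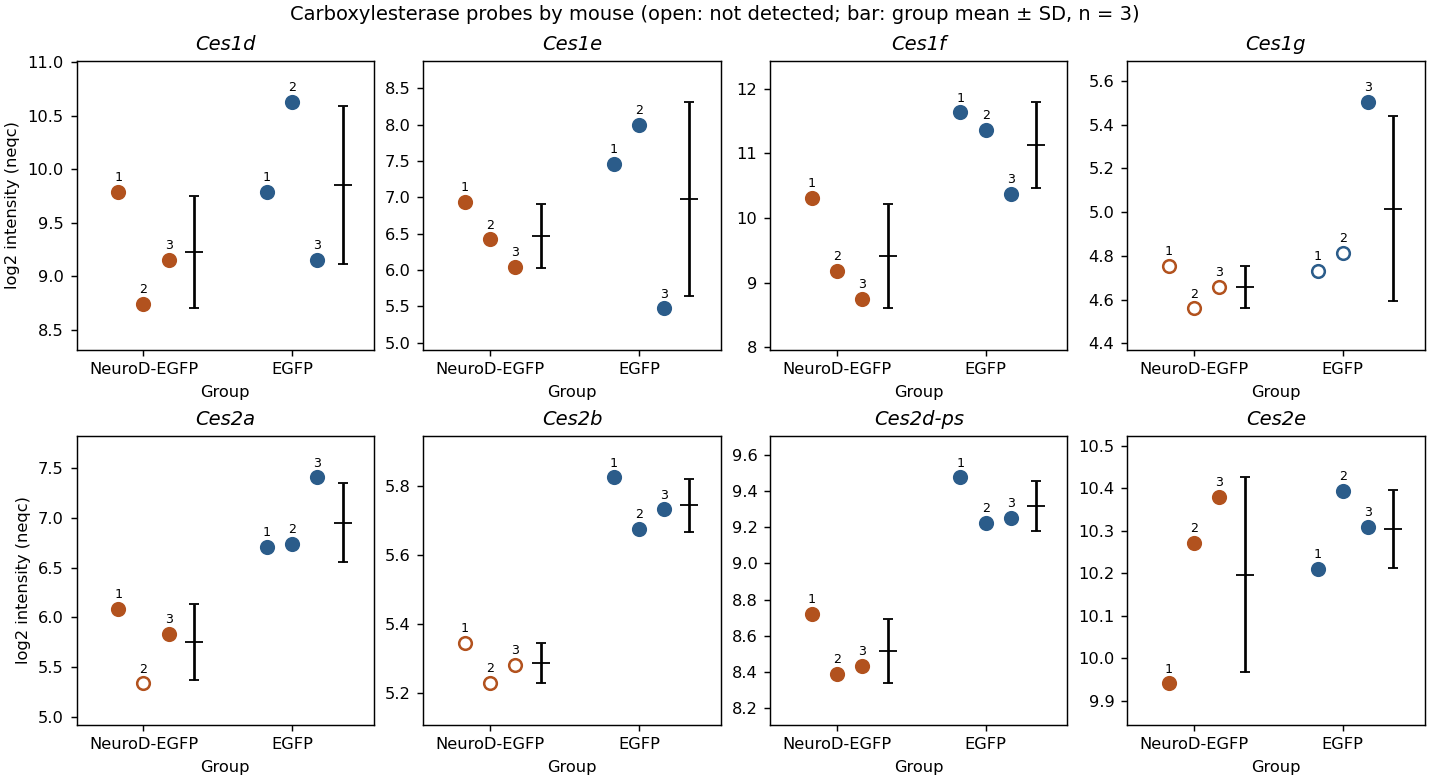
Log2 intensity (neqc) of the 8 carboxylesterase probes in each NeuroD-EGFP mouse (left) and EGFP mouse (right), numbered 1 to 3, with open circles for probes that were not detected and bars for the group mean ± SD (n = 3). The groups are apart in Ces1f, Ces2a, Ces2b and Ces2d-ps and overlap in Ces1d, Ces1e, Ces1g and Ces2e.

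In family 2, Ces2a, Ces2b and Ces2d-ps had all NeuroD-EGFP mice below all EGFP mice, as had 5.93% of all tested genes, and Ces2e had not. For Ces2b, detected in EGFP mice only, the gap was built into the detection filter. Ces2a, a family 2 enzyme once named Ces6, had log2 intensities of 6.09, 5.33 and 5.83 in NeuroD-EGFP mice 1 to 3, against 6.71, 6.74 and 7.41 in EGFP mice 1 to 3. It was detected in all EGFP mice but in only 2 of the 3 NeuroD-EGFP mice. The means were 5.75 ± 0.38 with NeuroD-EGFP and 6.95 ± 0.40 with EGFP (SD, n = 3 each), which is a difference of -1.20 (standard error 0.27) and an EGFP level 2.30-fold that with NeuroD-EGFP. Unlike Ces1d, Ces1e and Ces1f, Ces2a was highest in EGFP mouse 3. Without that mouse the difference was -0.97 (standard error 0.23), and without EGFP mouse 1 it was -1.32 (standard error 0.30). The size of the Ces2a difference, and with it the fold, depended on the processing. With all mice and an offset of 50 the difference was -0.84, and in the authors' unscaled log2 values it was -1.87.

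Ces2d-ps, annotated as a transcribed pseudogene, was detected in all mice, and its groups did not overlap. Its log2 intensities were 8.72, 8.39 and 8.44 with NeuroD-EGFP and 9.47, 9.22 and 9.25 with EGFP, so the lowest EGFP mouse was 0.50 above the highest NeuroD-EGFP mouse. The difference was -0.80 (standard error 0.16), with -0.83 (standard error 0.17) without EGFP mouse 3 and -0.72 (standard error 0.17) without EGFP mouse 1. Whether the probe also reads the protein-coding copies on either side was not tested.

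Ces2b was faint. Its log2 intensities were 5.35, 5.23 and 5.28 with NeuroD-EGFP, where it was detected in no mouse, and 5.83, 5.68 and 5.73 with EGFP, where it was detected in all 3. With each NeuroD-EGFP value raised to the dimmest detected signal of its array, the EGFP mean was, at the offset of 16, at least 1.21-fold higher than that with NeuroD-EGFP. The measured difference was -0.46 (standard error 0.13), with -0.46 (standard error 0.14) without EGFP mouse 3 and -0.42 (standard error 0.15) without EGFP mouse 1. Both values depend on the processing. With an offset of 50 in place of 16 the bound was 1.12-fold and the difference -0.26, and in the authors' unscaled log2 values the difference was -1.24.

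Ces2e, once named Ces5 and the next carboxylesterase gene after Ces2d-ps, showed no such gap. Its log2 intensities were 9.94, 10.27 and 10.38 in the NeuroD-EGFP mice and 10.21, 10.39 and 10.31 in the EGFP mice, with a difference of -0.11 (standard error 0.16). The groups overlapped, and EGFP mouse 3 lay between the other EGFP mice. Without NeuroD-EGFP mouse 1, the lowest of the 6, the difference was 0.021. It was -0.11 (standard error 0.18) without EGFP mouse 3 and -0.15 (standard error 0.19) without EGFP mouse 1.

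Of the 7 tested members, all had a negative difference and 4 had every NeuroD-EGFP mouse below every EGFP mouse, an arrangement found in 5.93% of the 10777 tested genes. Their median difference was -0.63, and that of all tested genes was 0.0047, of which 49.2% were negative. With Ces1g, all 8 members with a probe had a negative difference and the median was -0.57. Nothing is read from these counts, since the same comparison led to the choice of the family. Each count of tested members here includes Ces2b. It passed the filter through the EGFP mice only, so its sign and gap were built into that filter. Without EGFP mouse 3 the median of the 7 was -0.97 and 6 of them were apart in that direction, where 15.7% of tested genes were, and no member was among the 24 of 19099 probes (0.126%) that then passed an adjusted p of 0.05 from limma.

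**Figure D3:**
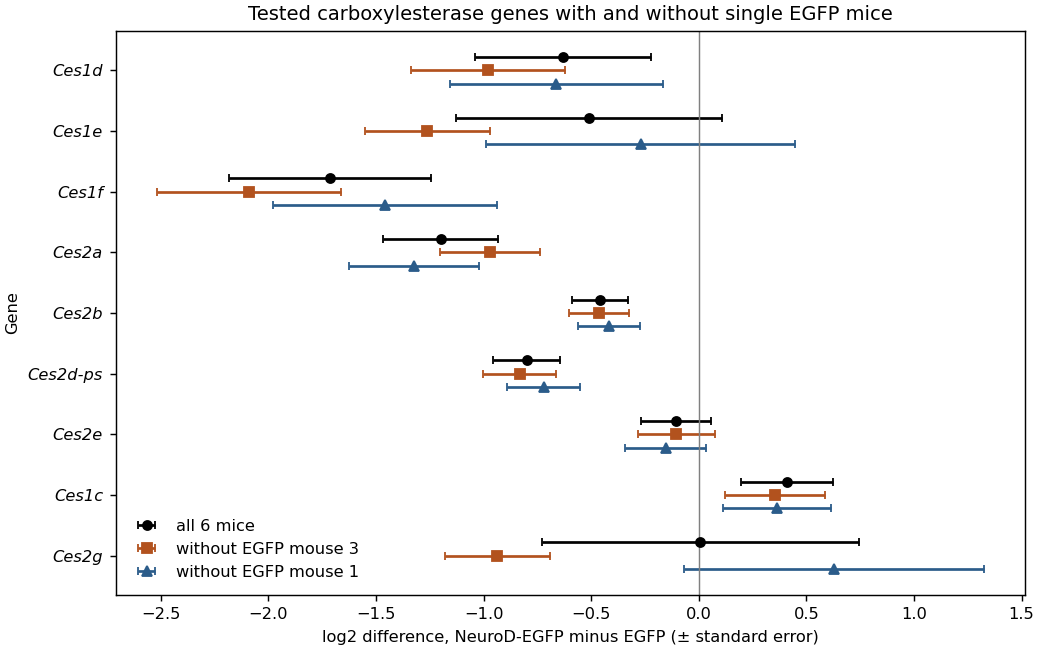
Log2 difference between the NeuroD-EGFP and EGFP mice, with its standard error, for the 7 tested members and for Ces1c and Ces2g, with all 6 mice, without EGFP mouse 3 and without EGFP mouse 1. Ces1e shifted to -1.26 and Ces2g to -0.94 without EGFP mouse 3, while Ces2b stayed at -0.46 and Ces2e at -0.11.

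Promoters were looked at because NeuroD is a basic helix-loop-helix factor, a class that binds E-boxes (CANNTG, which reads the same on both strands). RefSeq promoters (GRCm38.p6, 250 bases before to 50 after the start) were matched for 5 of the 9 members. Ces2a held 3 E-boxes, Ces2c 2, and Ces1e, Ces1g and Ces2e 1 each. At least 1 was found in 72.3% of 32851 promoters of the same length and at least 3 in 17.6%. The sequences of Ces2a, whose groups were apart, and of Ces1e and Ces2e, whose groups overlapped, are shown 5′ to 3′ with E-boxes in capitals.
Ces2a, chr8:104733753-104734052, plus strand: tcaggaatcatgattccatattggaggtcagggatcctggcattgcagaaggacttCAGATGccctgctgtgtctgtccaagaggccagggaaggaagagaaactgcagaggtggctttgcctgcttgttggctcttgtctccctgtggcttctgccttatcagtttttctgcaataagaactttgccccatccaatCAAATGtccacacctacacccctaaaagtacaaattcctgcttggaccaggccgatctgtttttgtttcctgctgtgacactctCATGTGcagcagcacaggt
Ces2e, chr8:104926010-104926309, plus strand: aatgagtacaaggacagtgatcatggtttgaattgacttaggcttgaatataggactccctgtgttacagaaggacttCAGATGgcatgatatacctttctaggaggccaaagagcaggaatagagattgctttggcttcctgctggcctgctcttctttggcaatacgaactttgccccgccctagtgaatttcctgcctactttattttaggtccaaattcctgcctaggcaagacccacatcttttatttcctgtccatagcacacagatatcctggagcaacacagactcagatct
Ces1e, chr8:93229570-93229869, minus strand: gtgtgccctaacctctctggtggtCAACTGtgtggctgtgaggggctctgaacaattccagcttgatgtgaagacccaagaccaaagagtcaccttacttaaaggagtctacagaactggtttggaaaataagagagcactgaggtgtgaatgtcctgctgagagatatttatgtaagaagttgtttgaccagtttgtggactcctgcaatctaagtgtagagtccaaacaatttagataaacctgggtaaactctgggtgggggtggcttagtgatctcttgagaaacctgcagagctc
Ces2a and Ces2e shared the E-box CAGATG. Of the 11 other carboxylesterase promoters 9 held an E-box, and Ces2g, described next, held none. A match in these windows is a run of letters and says nothing about binding.

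The rest of the family was mostly dark in these samples. Of 11 other carboxylesterase genes 9 had a probe (17 probes), and 2 passed the detection filter. Ces2g, a family 2 gene downstream of Ces2e, had log2 intensities of 10.28, 9.76 and 9.80 with NeuroD-EGFP and 11.18, 10.59 and 8.05 with EGFP, a difference of 0.0077 (standard error 0.74). The EGFP mice stood on both sides of the NeuroD-EGFP mice, with EGFP mouse 3 the lowest, and without it the difference was -0.94 (standard error 0.24). Without EGFP mouse 1 it was 0.63 (standard error 0.70). A second Ces2g probe gave the other sign, with 6.61, 6.75 and 6.70 with NeuroD-EGFP and 8.45, 7.21 and 5.96 with EGFP, a difference of -0.52 (standard error 0.55), which was -1.14 (standard error 0.34) without EGFP mouse 3 and 0.10 (standard error 0.36) without EGFP mouse 1. In both Ces2g probes EGFP mouse 1 was the highest and EGFP mouse 3 the lowest of the 6 mice. Ces1c, the secreted plasma esterase of mice, was near background at 5.58, 5.77 and 6.27 with NeuroD-EGFP and 5.36, 5.67 and 5.34 with EGFP, a difference of 0.41 (standard error 0.21) with overlapping groups. That of Ces1c was 0.35 (standard error 0.23) without EGFP mouse 3 and 0.36 (standard error 0.25) without EGFP mouse 1. The other 2 Ces1c probes did not pass the filter. Ces3b had 1 probe detected on 1 array of each group, and Ces1a, Ces1b, Ces2f, Ces3a, Ces4a and Ces5a were detected on no array. Ces1h and Ces2h were listed with no probe and were not analysed here.

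Deviations from a mouse's own group mean do not use the difference between groups, and they show how the members varied among mice of like treatment. Over the 6 mice, the 21 pairs of tested members had correlations of deviations between -0.90 and 0.92, with a median of 0.065. Over the 5 mice without EGFP mouse 3 they lay between -0.975 and 0.93 with a median of 0.38, and 5 pairs had the other sign. Among Ces1d, Ces1e and Ces1f, r was 0.84 for Ces1d and Ces1e (0.77 without that mouse), 0.79 for Ces1e and Ces1f (0.745 without it) and 0.71 for Ces1d and Ces1f (0.50 without it). In all 3, EGFP mouse 3 had the lowest value of the EGFP mice and NeuroD-EGFP mouse 1 the highest of the NeuroD-EGFP mice. Ces2e ran the other way to Ces2d-ps (r = -0.90) and Ces1f (-0.77), with -0.925 and -0.975 without EGFP mouse 3. Its values were weaker to Ces1d (-0.27) and Ces1e (-0.23), with -0.35 and -0.58 without EGFP mouse 3. Ces2a was the gene whose correlations with family 1 hung on that mouse, with -0.083 to Ces1d and -0.57 to Ces1e over 6 mice and 0.77 to Ces1d and 0.38 to Ces1e without it. The values of Ces2b, at background in the NeuroD-EGFP mice, are not read here. These correlations are descriptions over 6 mice that share the arrays' normalization. Removing the group means leaves fewer free values than mice, so strong correlations of either sign come easily. Of 10770 other genes, those closest to the members' mean deviation were Supv3l1 (r = 0.9992), Irf3 (0.9991), H2bc18 (0.996), Vrk3 (0.995) and Ecsit (0.993). The closest of so many genes over 6 mice can lie near 1 by their number alone, so nothing is read from these values. That mean took in all tested members, Ces2b among them, and its widest deviation was -0.37 in EGFP mouse 3.

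**Figure D4:**
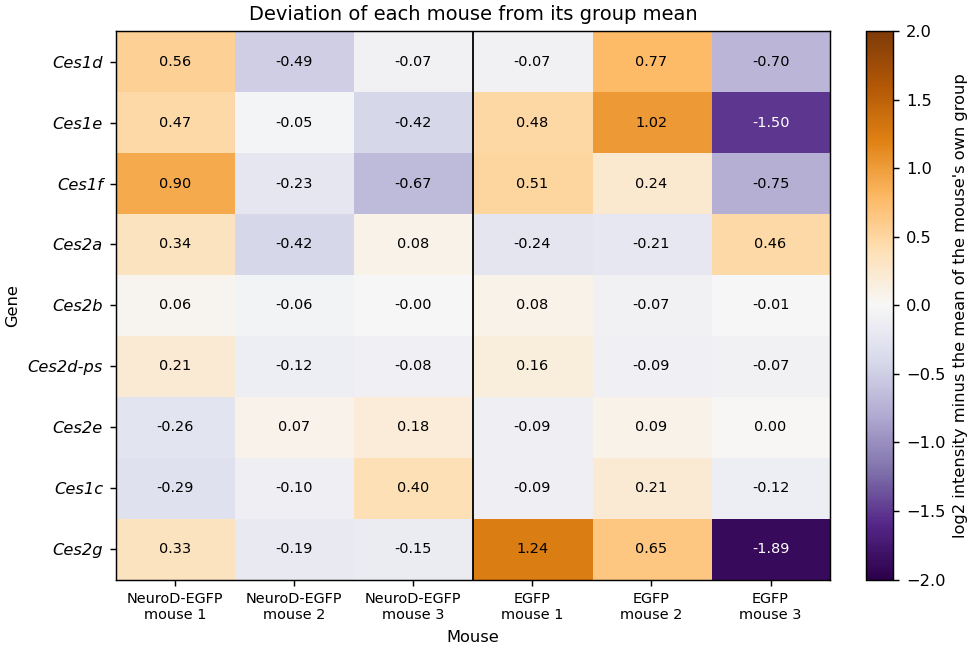
Log2 intensity minus the mean of the mouse's own group, for 9 carboxylesterase genes (rows) in the 3 NeuroD-EGFP and 3 EGFP mice (columns), with the colour scale running between -2 and 2. EGFP mouse 3 is low in Ces1d, Ces1e, Ces1f and Ces2g and high in Ces2a.

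Genes that work beside carboxylesterases had differences of both signs, none passed an adjusted p of 0.05 in any list, and several hung on EGFP mouse 3. Of 15 tested ester and amide hydrolases outside the family, 7 had a positive and 8 a negative difference (median -0.025), against 3 positive and 12 negative without EGFP mouse 3 (median -0.11). Aadac, a lipase-like deacetylase of the same cell compartment, had 0.63 (standard error 0.85), but -0.49 (standard error 0.15) without that mouse. Ephx2, the soluble epoxide hydrolase, had 0.82 (standard error 0.72), but -0.13 (standard error 0.16) without it. The lipase Abhd6 had -0.68 (standard error 0.33) and kept its sign at -0.85 (standard error 0.35). Pon3 had -0.50 (standard error 0.13), and -0.52 (standard error 0.14) without EGFP mouse 3. Of these 15 genes 3, Pon3 among them, had every NeuroD-EGFP mouse below every EGFP mouse, and 0 had the reverse. Over all tested genes 5.93% had the lower arrangement.

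Of 18 tested genes of triglyceride and retinyl ester turnover, 13 were positive and 5 negative (median 0.31), and leaving out EGFP mouse 3 gave 9 of each sign (median 0.039). Apob, the chylomicron protein, had 0.95 (standard error 0.17) with all mice and 0.83 (standard error 0.16) without that mouse. The retinol carrier Rbp2 had 1.10 (standard error 0.88), but -0.059 (standard error 0.14) without it. The lipase Pnliprp2 had 0.95 (standard error 0.41), with 1.47 (standard error 0.15) without EGFP mouse 3 and 0.63 (standard error 0.40) without EGFP mouse 1. Apob was thus the one of these 3 with a like value in each setting.

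Of 11 tested xenobiotic receptors and their partners, 6 were positive and 5 negative (median 0.013, and -0.075 without EGFP mouse 3). Nr1i3, the drug-sensing receptor CAR, had 0.88 (standard error 1.13), but -0.62 (standard error 0.20) without EGFP mouse 3. Nr1h4, the bile acid receptor FXR, had -0.78 (standard error 0.60), but 0.0063 (standard error 0.16) without it. The values of both receptors with all 6 mice thus rested on that mouse. The liver X receptor Nr1h3 had 0.29 (standard error 0.16), and 0.20 (standard error 0.15) without it.

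Markers of the cells and tissues that could carry these transcripts are given next. Of 15 tested enterocyte markers 12 were positive, with a median of 0.21, which was 0.12 without EGFP mouse 3 and 0.062 without EGFP mouse 1. Their mean level relative to all 6 mice was 0.10, 0.24 and 0.33 in the NeuroD-EGFP mice and -0.17, 0.24 and -0.73 in the EGFP mice. The mean level of the carboxylesterase members was -0.063, -0.57 and -0.53 in the NeuroD-EGFP mice and 0.50, 0.64 and 0.019 in the EGFP mice. EGFP mouse 3 had the lowest mean of the enterocyte markers, and NeuroD-EGFP mouse 2 that of the members. The enterocyte list was not low throughout in EGFP mouse 3. Of the 6 mice it had the lowest Lct (4.56), Apoa4 (11.17) and Fabp1 (4.97), but the highest Anpep (14.5), Dpp4 (13.55) and Mep1a (12.43). Its Vil1 (13.64) and Sis (14.49) lay within the range of the other mice. Of the enterocyte markers Lct had 3.16 (standard error 2.00), the apolipoprotein Apoa4 1.23 (standard error 0.83) and the fatty acid binding protein Fabp1 0.93 (standard error 0.63). Leaving out EGFP mouse 3 brought Lct to 0.50 (standard error 0.26), Apoa4 to 0.12 (standard error 0.13) and Fabp1 to 0.12 (standard error 0.22). Alpi, 1 of the 3 negative markers, had -0.68 (standard error 0.62), and -1.48 (standard error 0.14) without that mouse. Mep1a had 0.67 (standard error 0.95), with 1.77 (standard error 0.55) without EGFP mouse 3 and -0.34 (standard error 0.70) without EGFP mouse 1.

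Of 12 hepatocyte markers Fga, Fgb, Fgg, Apoh, Tat and Hpx were detected on no array and Alb did not pass the filter. The 5 tested ones were all negative (median -0.36), and 4 of them were without EGFP mouse 3 (median -0.18). Cps1 was bright in all mice, at 10.87 to 12.13, where Fga, Fgb and Fgg were not detected. The signs of this list are therefore not read as a liver signal. Ahsg had -0.53 (standard error 0.19), Cps1 had -0.40 (standard error 0.30) and Serpina1a had -0.36 (standard error 0.24). For Ahsg the NeuroD-EGFP values of 5.10, 5.35 and 5.07 lay below the dimmest detected signals of their arrays (5.44, 5.47 and 5.50). Ahsg thus passed the filter through the EGFP mice only, so its sign was built into that filter. For Cps1 leaving out EGFP mouse 3 gave -0.70 and leaving out EGFP mouse 1 gave -0.067, and for Serpina1a the same gave -0.18 and -0.58. Of 8 tested adipocyte markers, a tissue in which Ces1d is known, 7 were positive (median 0.31), against 4 without EGFP mouse 1 (median 0.084) and 5 without EGFP mouse 2 (median 0.11). Plin1 and Retn, also on this list, were detected on no array, and Fabp4 (5.33 to 6.00) and Lep (5.82 to 6.40) were faint. Lipe and Cidec also stand in the list of triglyceride and retinyl ester turnover. The signs of the adipocyte list are therefore not read as a fat signal. The lipase Lipe had 0.57 (standard error 0.19), and no EGFP mouse left out took it below 0.496. Adipoq, which encodes adiponectin, had 0.47 (standard error 0.76), with 1.23 without EGFP mouse 3 and -0.20 without EGFP mouse 1. Plin4, a lipid droplet protein, had 0.42 (standard error 0.37), with 0.86 without EGFP mouse 3 and 0.18 without EGFP mouse 2.

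Of the pancreatic acinar markers 2 were tested, Amy2a5 with -1.29 (standard error 0.68), which was -0.43 without EGFP mouse 2, and Rnase1 with 0.27 (standard error 0.31), which was 0.067 without EGFP mouse 3. Of 8 tested macrophage markers 5 were positive (median 0.040), against 1 without EGFP mouse 2 (median -0.21). Mrc1 had -0.65 (standard error 0.23), Adgre1 0.14 (standard error 0.13) and C1qb 0.14 (standard error 0.30), the last with -0.18 without EGFP mouse 2. All 6 tested crypt and proliferation markers were negative (median -0.15), against 3 without EGFP mouse 1 (median 0.00017) and all 6 without EGFP mouse 2 (median -0.31). The nucleotide reductase subunit Rrm2 had -0.73 (standard error 0.31), the stem cell receptor Lgr5 -0.21 (standard error 0.22) and the topoisomerase Top2a -0.19 (standard error 0.26). These were -0.42 for Rrm2 and 0.013 for Top2a without EGFP mouse 1, and -0.014 for Lgr5 without EGFP mouse 3.

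All 13 tested interferon-stimulated genes were negative (median -0.96), and 12 were without EGFP mouse 1 (median -0.42). Rsad2 had -2.06 (standard error 0.70), Usp18 -1.57 (standard error 0.72) and Isg15 -1.40 (standard error 0.64), and leaving out EGFP mouse 1 gave -1.30 for Rsad2, -0.75 for Usp18 and -0.65 for Isg15. Their mean level over the list was -0.23, -0.51 and -0.82 in the NeuroD-EGFP mice and 1.60, 0.18 and -0.22 in the EGFP mice, with EGFP mouse 1 the highest. The part of these cells and genes in the members' values was not tested.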

How the data were processed

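Jejunum RNA of 3 NeuroD-EGFP and 3 EGFP mice, grouped by the submitters' titles, was read on beadchips. The authors deposited intensities, background-subtracted, with 24.4% to 26.1% of values at or below 0, and beside each a detection p-value, deposited in the next column. A log2 table deposited beside it holds the logarithm of these intensities (within 1.23e-06) where they exceed 0, and 4 elsewhere. The 75th percentile of the intensities was 80.3 to 94.2 on the NeuroD-EGFP arrays and 98.0 to 122 on the EGFP arrays. Scanner software is not given in the sources used here.

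Intensities were processed with neqc (limma 3.58.1, R 4.3.3) and tested with lmFit and eBayes, with Benjamini-Hochberg adjustment over 19099 probes. Probes were named by the platform annotation, and old symbols were replaced from RefSeq (GRCm38.p6). Of all probes 34885 had 1 symbol, 18 several and 10378 none. A gene with several tested probes is given by its brightest. The script was tested on simulated data.

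Members and lists were chosen with earlier results of these data known. The text names all members, other carboxylesterases, the 3 genes of widest difference per list, with genes a statement needs, and the 5 most alike in deviation. Alternatives were scaling, offset, detection filter, array weights, eBayes trend, the methods' t-test, a replicate block and leaving out mice, with the normalization of all 6 arrays kept. The count of members apart by setting, values of single context genes and correlations without EGFP mice, and the Ces2b bound at offset 50 were added after the data had been seen.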

Additional observations from a re-analysis of the deposited data

How the results depend on the processing

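The count of tested probes with an adjusted p under 0.05 was 0 to 24 when 1 mouse was left out, with 24 (21 higher, 3 lower) without EGFP mouse 3, and 0 by the methods' t-test after adjustment, which gave 1061 probes at an unadjusted p under 0.05. Leaving out 1 mouse gave 6 to 7 members with a negative difference and a median of -0.97 to -0.49. Between 4 and 6 members then had every NeuroD-EGFP mouse below every EGFP mouse. In these settings 8.9% to 15.7% of tested genes had that arrangement. Ces2b, whose gap was built into the detection filter, was among the members apart in every setting. Scaled to the 75th percentile, 3 members were apart, as Ces1f then overlapped, with 5.69% of genes. In the authors' log2 values, where the median of all tested probes was -0.27 and 83.8% of genes were negative, the members' median was -1.095 and 5 members were apart, with 22.6% of genes. Single differences ranged from -1.26 to 0.0037 for Ces1e and from -0.20 to 0.021 for Ces2e. Medians ranged from -0.29 to 0.50 for other carboxylesterases, -0.12 to 0.15 for other hydrolases, -0.075 to 0.074 for xenobiotic receptors, 0.084 to 0.49 for adipocyte markers, -0.21 to 0.18 for macrophage markers and -0.31 to 0.00017 for crypt markers, and in the authors' values they were -0.27 for xenobiotic receptors and -0.22 for macrophage markers. With the replicate block the members' median stayed at -0.63 and 0 probes passed. Same-numbered mice had correlations of deviations of 0.30, -0.090 and 0.17, so the numbers were not taken to pair them. The causes of these shifts were not tested. Ces2b lay at background in the NeuroD-EGFP mice and Ces1g in all mice but EGFP mouse 3, which limits their values.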
